A study of Homo sapiens with 11 samples.

Results

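Transcripts with a strongly reduced signal after transduction with a MYCN hairpin were followed over all 11 arrays of the series, 10 in number: REEP3, RAP1A, EPDR1, SMCO4, MEX3D, MAF1, IRGQ, UBE4A, YWHAH and MBD2. They are 10 of the 19775 genes named on the array, and together they have 26 of its 54675 probe sets. They were chosen by the size and earliness of the drop in their measured signal between shMYCN and control virus arrays. The differences of that comparison are therefore a description with no test. Tests are kept for the control virus itself, for relatives of the 10 genes and for genes that work with them or share their class or setting.

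The cells were IMR32, a neuroblastoma line with amplified MYCN, grown in medium with fetal calf serum. At each of 24, 48 and 72 hours after lentiviral transduction there were 2 arrays of cells given a MYCN hairpin (labelled shMYCN#3, A and B, a duplicate) and 1 array of cells given a control hairpin (SHC002), and 2 arrays came from cells without virus at 0 hours. A single hairpin against MYCN was used, and the labels do not say that arrays A and B came from separate cultures, so errors and p-values reflect array-to-array scatter, part of which may be technical. Values are linear signal intensities that the authors had brought to a common level per array, so that a shift in total RNA per cell cannot be seen.

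MYCN encodes a transcription factor of the MYC family, which pairs with MAX, binds the E-box sequence CACGTG and drives growth and division in neuroblastoma. The 10 transcripts do not form 1 pathway. REEP3, SMCO4 and EPDR1 encode membrane or secreted proteins. RAP1A encodes a small GTPase, IRGQ a protein of the immunity-related GTPase family and YWHAH a signalling adaptor. UBE4A encodes a ubiquitin ligase. MEX3D, MAF1 and MBD2 encode regulators of RNA, of transcription by RNA polymerase III and of methylated chromatin.

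Median signals of the 11 arrays lay between 14.9 and 16.7. MYCN itself, by its brightest probe set, measured 4567.4 to 5623.7 in the 6 arrays labelled shMYCN, 5055.3 to 5389.7 in the 3 control virus arrays, and 4507.4 and 5040.1 without virus. Its log2 difference over the 3 times was -0.020 ± 0.08 (SE), which did not pass (limma adjusted p = 0.866). Of 3 dimmer MYCN probe sets above the dim limit (a mean signal of 14.8), the brightest measured 254.2 and 292.3 at 24 hours, 319.4 and 624.2 at 48 hours, and 650.7 and 795.6 at 72 hours after the MYCN hairpin, against 406.4, 520.1 and 370.4 with control virus and 370.8 and 354.8 without virus. The next measured 130.2 and 162.4 at 24 hours, 183.4 and 354.4 at 48 hours, and 338.8 and 404 at 72 hours after the MYCN hairpin, against 216.2, 290.2 and 224.9 with control virus and 227.6 and 223.7 without virus. Both thus lay below the control virus array at 24 hours, on either side of it at 48 hours and above it at 72 hours. The dimmest of the 3 lay at 20.1 to 60.9 after the MYCN hairpin, against 36.7 to 46.4 with control virus and 22.6 and 37.2 without virus. The MYCN probe sets do not move one way, so the arrays are called by their label and every direction below rests on it. Of 8 listed sympathetic neuroblast markers 6 were measured, and PHOX2A, GATA3, ISL1, HAND2 and DBH lay above the dim limit while TH lay at 0.6 to 25.4. None of 4 leukocyte or 2 Schwann cell markers lay above that limit, and 1 of 3 endothelial markers did. Of 5 fibroblast markers, DCN, LUM and COL1A2 lay under it. The sum of the 5, carried by COL1A1, was 465.5 to 710.9 in the arrays labelled shMYCN, 327.1 to 402.7 with control virus and 350.5 to 372.2 without virus, and its part in the results was not tested.

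Promoter sequences were compared for the canonical E-box, CACGTG, since it reads the same on both strands and is the sequence that MYC proteins bind. RefSeq windows from 250 bases before to 50 bases after the transcript start (build GRCh38.p14) were used for 8 of the 10 genes in 9 windows, with 2 for EPDR1 and none for REEP3 and MAF1. MEX3D was the 1 member with a match, with CACGTG at 2 places, 205 and 148 bases before the start, against 7.26% of all 35116 windows with at least 1 match and 0.664% with 2 or more. The windows of RAP1A, EPDR1, SMCO4, IRGQ, UBE4A, YWHAH and MBD2 held none. The windows of MEX3D and RAP1A are shown because they are the extremes of the set in base composition and differ in the motif. Capitals mark CACGTG, MEX3D is at chr19:1568276-1568575 on the minus strand, and RAP1A is at chr1:111541759-111542058 on the plus strand.
MEX3D: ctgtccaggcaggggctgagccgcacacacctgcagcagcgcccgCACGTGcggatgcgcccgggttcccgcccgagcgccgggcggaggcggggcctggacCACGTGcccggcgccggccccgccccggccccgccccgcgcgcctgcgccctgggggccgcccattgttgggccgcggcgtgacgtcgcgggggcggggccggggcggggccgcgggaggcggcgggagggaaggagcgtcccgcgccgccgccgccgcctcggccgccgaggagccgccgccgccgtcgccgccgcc
RAP1A: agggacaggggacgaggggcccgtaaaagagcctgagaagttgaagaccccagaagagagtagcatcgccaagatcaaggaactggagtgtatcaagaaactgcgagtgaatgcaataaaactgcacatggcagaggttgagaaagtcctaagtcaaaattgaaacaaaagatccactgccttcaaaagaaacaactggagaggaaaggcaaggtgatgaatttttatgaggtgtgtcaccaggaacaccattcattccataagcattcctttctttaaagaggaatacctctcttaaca
The G and C content of the 9 windows ran from 43.7% for RAP1A to 85.3% for MEX3D with a median of 67.3%, against 58.7% over all windows. A match describes the letters of these windows and is no measurement of binding.

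All 10 transcripts were already low at the first time point. On both arrays labelled shMYCN of 24 hours the signal of each of the 10 lay below all 5 arrays without the MYCN hairpin, which is also true of 9.57% of the 11865 genes tested, and the same held at all 3 times for the 10 members and for 6.52% of genes. At 24 hours 5 of the 10 were at least 2-fold lower on the log2(signal + 16) scale, as were 0.169% of genes. Over the 3 times 10 of 10 were, beside 0.851% of genes. The members were chosen by this same drop, so these counts describe them and test nothing. Mean signal at 24 hours stood between 33.8% (EPDR1) and 63.2% (MAF1) of the control virus array of that hour, with a median of 48.1% over the 10. At 48 hours it stood between 18.0% and 33.1%, with a median of 26.7%, and at 72 hours between 14.0% and 32.8%, with a median of 19.9%. In log2(signal + 16), the median difference of the members from control virus was -0.996 at 24 hours, -1.74 at 48 hours and -2.10 at 72 hours, beside medians of 0.027, 0.037 and 0.036 over all genes tested. The arrays hold RNA of whole cultures, so fewer cells with a transcript and less of it per cell cannot be told apart.

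**Figure D1:**
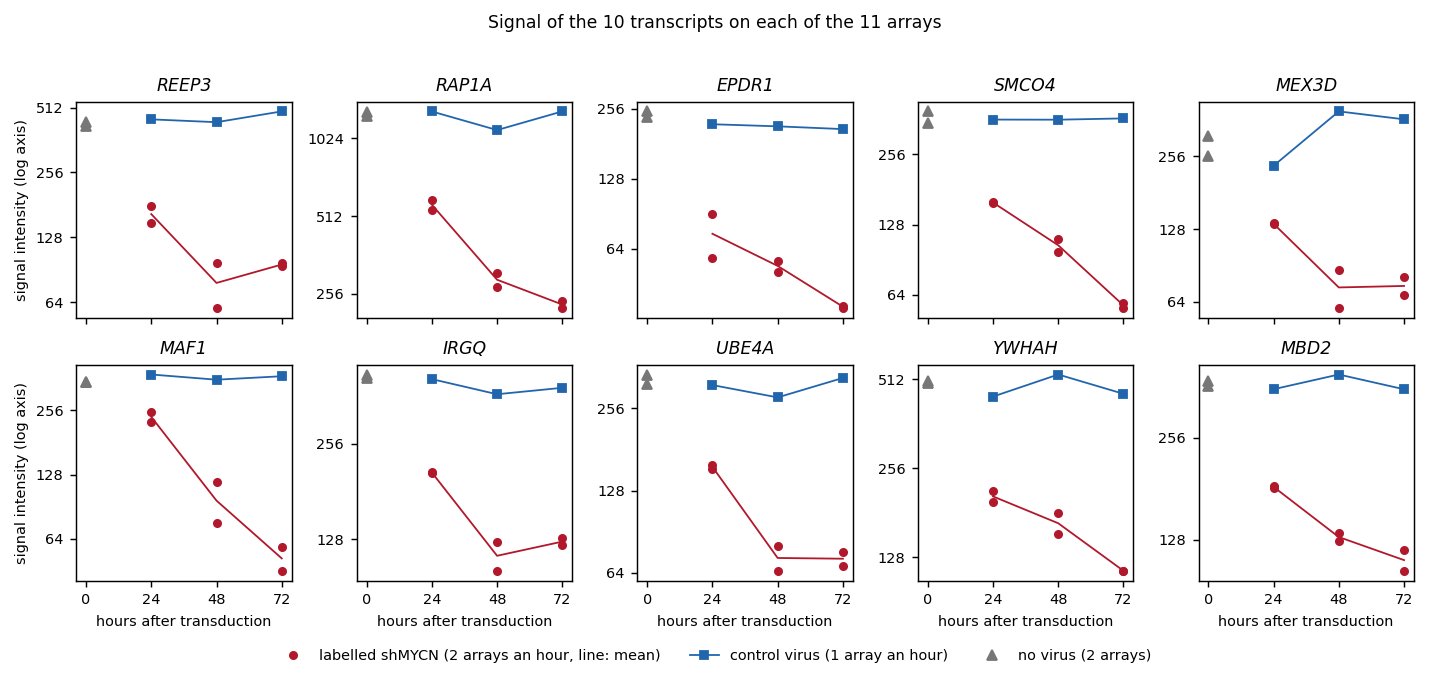
Signal intensity (log axis) of the brightest probe set of each of the 10 transcripts against hours after transduction, for the 6 arrays labelled shMYCN (red, line through the hourly mean), the 3 control virus arrays (blue) and the 2 arrays without virus at 0 hours (grey). In every panel both red points of 24 hours lie below all blue and grey points, and REEP3, MEX3D, IRGQ and UBE4A flatten after 48 hours while SMCO4, MAF1, EPDR1 and YWHAH go on down.

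REEP3 encodes an endoplasmic reticulum membrane protein that helps to clear this membrane from mitotic chromosomes. Its signal was 179.2 and 148.9 at 24 hours, 97.0 and 60.3 at 48 hours, and 94.3 and 97.2 at 72 hours after the MYCN hairpin, against 451.3, 437.9 and 491.4 with control virus and 437.6 and 422.2 without virus. The groups did not overlap, and the arrays of 72 hours lay near the higher array of 48 hours. REEP3 had the lowest difference of all 11865 genes over the 3 times (log2 -1.95 ± 0.11, SE), made up of -1.38 at 24 hours, -2.29 at 48 hours and -2.18 at 72 hours, each ± 0.19. Within the arrays labelled shMYCN the step from 24 to 48 hours was -0.95 ± 0.16 and the step from 48 to 72 hours was 0.27 ± 0.16.

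SMCO4 encodes a small single-pass membrane protein whose function is little known. Its signal was 158.5 and 159.9 at 24 hours, 110.7 and 98.1 at 48 hours, and 56.3 and 59.0 at 72 hours after the MYCN hairpin, against 361.1, 360.7 and 365.3 with control virus and 348.0 and 391.5 without virus. Duplicate arrays lay close together and each hour lay below the one before it. The log2 differences from control virus were -1.11 ± 0.12, -1.65 ± 0.12 and -2.37 ± 0.12 in order of time. Of the difference at 72 hours 46.6% was present at 24 hours and 69.4% at 48 hours, on the log2 scale.

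EPDR1 encodes a secreted glycoprotein related to ependymin that is also found in lysosomes. Its signal was 58.5 and 90.1 at 24 hours, 51.1 and 57.0 at 48 hours, and 36.5 and 35.7 at 72 hours after the MYCN hairpin, against 219.7, 215.2 and 209.4 with control virus and 235.2 and 249.5 without virus. The pair at 24 hours was the least alike, and its higher array still lay far below every array without the MYCN hairpin. EPDR1 ranked 2 from the lowest of all 11865 genes at 24 hours (log2 -1.41 ± 0.19), and 66.6% of its 72 hour difference was then present, the highest share among the 10.

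RAP1A encodes a small GTPase of the RAS family that controls integrin adhesion and cell junctions. It is the brightest of the 10, with 591.4 and 542.7 at 24 hours, 307.3 and 273.0 at 48 hours, and 239.2 and 225.8 at 72 hours after the MYCN hairpin, against 1303.5, 1103.9 and 1304.2 with control virus and 1292.0 and 1253.9 without virus. Each pair was tight and the hours did not overlap with each other. The log2 difference from control virus was -1.18, -1.87 and -2.41 in order of time, each ± 0.11, and RAP1A ranked 8, 7 and 7 among all genes at these hours.

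YWHAH encodes 14-3-3 eta, an adaptor that binds phosphorylated proteins and is abundant in neurons. Its signal was 196.3 and 215.4 at 24 hours, 153.3 and 180.7 at 48 hours, and 115.4 and 115.2 at 72 hours after the MYCN hairpin, against 447.9, 532.0 and 457.7 with control virus and 496.7 and 507.5 without virus. The groups were far apart, and the hours followed each other downward. The log2 differences from control virus were -1.07, -1.59 and -1.85, each ± 0.12, and the later steps within the arrays labelled shMYCN were -0.28 ± 0.10 and -0.47 ± 0.10.

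IRGQ encodes a member of the immunity-related GTPase family. Its brightest probe set gave 207.6 and 207.8 at 24 hours, 101.7 and 125.3 at 48 hours, and 122.7 and 128.9 at 72 hours after the MYCN hairpin, against 408.9, 366.4 and 383.9 with control virus and 422.8 and 412.4 without virus. The signal at 72 hours was no lower than at 48 hours (step 0.14 ± 0.10), so that the log2 differences from control virus were -0.93, -1.57 and -1.50, each ± 0.13.

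UBE4A encodes a U-box ubiquitin ligase that extends ubiquitin chains. Its signal was 154.2 and 158.6 at 24 hours, 80.0 and 65.0 at 48 hours, and 67.6 and 76.5 at 72 hours after the MYCN hairpin, against 311.8, 281.0 and 331.1 with control virus and 315.4 and 340.9 without virus. The pairs of 48 and 72 hours overlapped each other and none overlapped the other arrays. The log2 differences from control virus were -0.93, -1.75 and -1.98, each ± 0.14, and the step from 48 to 72 hours was -0.0040 ± 0.11.

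MEX3D encodes an RNA-binding protein with KH domains and a RING finger. Its brightest probe set gave 134.1 and 135.2 at 24 hours, 60.4 and 86.3 at 48 hours, and 68.0 and 80.8 at 72 hours after the MYCN hairpin, against 234.0, 393.1 and 364.5 with control virus and 312.0 and 256.5 without virus. The control arrays of MEX3D spread more than those of the other members, and the control array of 24 hours was the lowest of them. At 24 hours the log2 difference was -0.73 ± 0.18 from that array and -0.99 ± 0.15 from the arrays without virus, which are of 0 hours. At 48 and 72 hours MEX3D differed from control virus by log2 -2.21 and -2.08, each ± 0.18.

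MAF1 encodes a repressor of RNA polymerase III that acts when nutrients or growth signals are scarce. Its signal was 226.7 and 250.8 at 24 hours, 75.5 and 117.7 at 48 hours, and 58.3 and 45.2 at 72 hours after the MYCN hairpin, against 377.5, 356.9 and 370.5 with control virus and 348.5 and 346.5 without virus. The other 5 arrays were nearly level, and MAF1 was the slowest of the 10 to go down and ended among the lowest. The log2 difference from control virus was -0.63 at 24 hours, -1.75 at 48 hours and -2.52 at 72 hours, each ± 0.20, and 25.0% of the last was present at 24 hours. Its rank among all genes moved with it, at 108, 11 and 4.

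MBD2 encodes a protein that binds methylated CpG sites and brings the NuRD complex to them. The brightest of its probe sets gave 184.3 and 182.6 at 24 hours, 127.0 and 133.7 at 48 hours, and 119.3 and 103.5 at 72 hours after the MYCN hairpin, against 356.6, 394.2 and 356.5 with control virus and 364.8 and 376.8 without virus. These groups did not overlap, and most of the difference was present at 48 hours. The log2 differences from control virus were -0.90, -1.49 and -1.55, each ± 0.12.

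**Figure D2:**
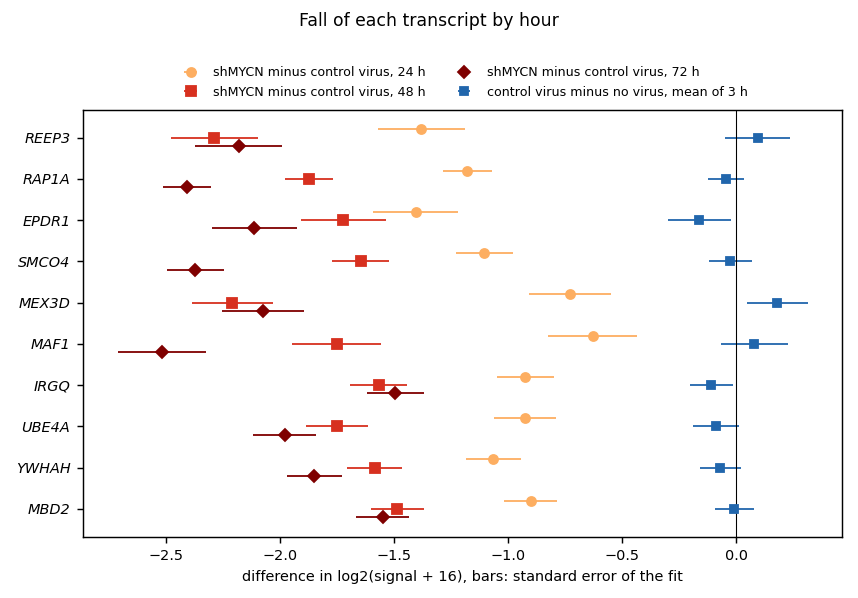
Difference in log2(signal + 16) between arrays labelled shMYCN and control virus at 24, 48 and 72 hours (orange circles, red squares, dark diamonds), and between control virus and no virus as a mean of 3 hours (blue squares), for each of the 10 transcripts, with standard errors of the fit as bars. The 24 hour points run from -1.41 for EPDR1 to -0.63 for MAF1, and the blue points stay between -0.16 and 0.18.

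The members differed in how the difference was spread over time. At 24 hours between 25.0% (MAF1) and 66.6% (EPDR1) of the 72 hour log2 difference was present, with a median of 53.3%, and at 48 hours between 69.4% (SMCO4) and 106% (MEX3D), with a median of 87.1%. REEP3, MEX3D, IRGQ and MBD2 had over 90% of it at 48 hours, and the other 6 had less. The step from 24 to 48 hours within the arrays labelled shMYCN was negative for 10 of 10 members, with a median of -0.78 that ranged from -1.20 (MAF1) to -0.28 (YWHAH). The step from 48 to 72 hours was negative for 7 of 10, with a median of -0.25, and was lowest for MAF1 and SMCO4 (-0.71 each). The duplicate arrays of 48 hours, from which both steps are measured, were the least alike: the median absolute log2 difference between A and B over the 10 members was 0.23 there, against 0.079 at 24 hours and 0.070 at 72 hours. Without array A of 48 hours the median of the first step was -0.64. Over all genes tested, limma's fit called 0.59% lower at 24 hours, 6.9% lower and 10.1% higher at 48 hours, and 15.7% lower at 72 hours. No count of members called is set beside these shares, since the same values chose them. MAF1 (-0.63) and MEX3D (-0.73) had the smallest differences of the members at 24 hours. From 24 to 72 hours the difference from control virus widened for 10 of 10 members, by log2 -0.57 for IRGQ to -1.89 for MAF1 (median -0.93), given here with no test since the same values chose them. Over all genes tested 10.3% passed for such a change in either direction.

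The control virus was also set against no virus, and no difference of the 10 transcripts passed. The arrays without virus are all of 0 hours and the control virus arrays of 24, 48 and 72 hours, so transduction and time in culture cannot be told apart here. As a mean of the 3 hours, the log2 differences of the control virus arrays ran from -0.16 ± 0.14 for EPDR1 to 0.18 ± 0.13 for MEX3D, with a median of -0.035. None of the 10 passed limma's test (lowest adjusted p = 0.997), none had an unadjusted p under 0.05, and 0.0337% of all genes passed (4 of 11865). By single hour none passed either, where 0%, 0% and 0.16% of genes passed at 24, 48 and 72 hours, and MEX3D at 48 hours (log2 0.45 ± 0.18) was the 1 member with an unadjusted p under 0.05. The count stayed at 0 in every alternative of the processing that was run. So few genes passed that a count of 0 among 10 cannot set the members apart from other genes. The control virus arrays also took part in the choice of the members, and each hour has 1 such array. Against the arrays without virus, which share the arrays labelled shMYCN with the first comparison, the members stood at a median of -1.07 at 24 hours, -1.75 at 48 hours and -1.99 at 72 hours.

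Not all probe sets of the members moved together. Of the 26 probe sets, 18 had a mean signal above the dim limit. Among these 18, 15 were at least 1.5-fold lower than control virus over the 3 times. In the same 15 the 6 arrays labelled shMYCN lay below all 5 others. These 15 include the brightest probe sets of the 10 members, whose drop was fixed by the choice of the members. Of the 8 other probe sets above the limit, 5 were at least 1.5-fold lower. In the same 5 the arrays labelled shMYCN lay below all others. These 5 belong to REEP3, RAP1A and IRGQ. Over all probe sets above the limit the shares were 3.45% and 6.85%. EPDR1, SMCO4, MAF1 and UBE4A have 1 probe set each, with no other to set beside it. The second probe set of REEP3 followed the first, with 13.6 to 20.2 in the 6 arrays labelled shMYCN against 48.9 to 60.8 in the 5 others. Its log2 difference from control virus was -1.20 ± 0.10. All log2 values of probe sets given here and below are differences from control virus over the 3 times. The ranges of the others also include the arrays without virus. The second RAP1A probe set measured 54.0 to 112.5 with a median of 73.0 in the arrays labelled shMYCN, against 123.4 to 167.1 in the others, a smaller difference (-0.83 ± 0.12) than the -1.82 ± 0.06 of the first. The 4 IRGQ probe sets above the limit gave -1.33, -1.31, -0.88 and -0.70, and a further dim one gave -0.65 ± 0.09 with no overlap between 4.0 to 6.9 and 13.1 to 22.3.

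MBD2 and YWHAH were the exceptions. Of 3 further MBD2 probe sets, the 2 above the dim limit showed no such difference. For the brighter of them the signals were 82.0 to 96.8 in the arrays labelled shMYCN against 70.7 to 97.5 in the others. Its log2 difference from control virus was 0.20 ± 0.10. For the dimmer the signals were 31.1 to 40.9 against 35.4 to 43.9 (-0.11 ± 0.10). These groups overlap, whereas those of the brightest MBD2 probe set do not (-1.31 ± 0.06). A dimmer YWHAH probe set measured 15.3 to 30.8 in the arrays labelled shMYCN and 22.0 to 29.8 in the others (-0.16 ± 0.13), against -1.50 ± 0.06 for the brightest. Which part of a transcript each probe set reads was not known here. The low MEX3D signal rests on 1 probe set, whose suffix (_f_at) in the maker's scheme marks possible matches to similar sequences, and the other 2 MEX3D probe sets lay at 0.9 to 15.3 on all arrays, under the dim limit. Averaging all probe sets of a gene, dim ones included, left the log2 difference at -0.33 for MBD2, -0.50 for YWHAH, -0.61 for MEX3D and -0.68 for RAP1A, and 5 of the 10 members at least 2-fold lower.

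**Figure D3:**
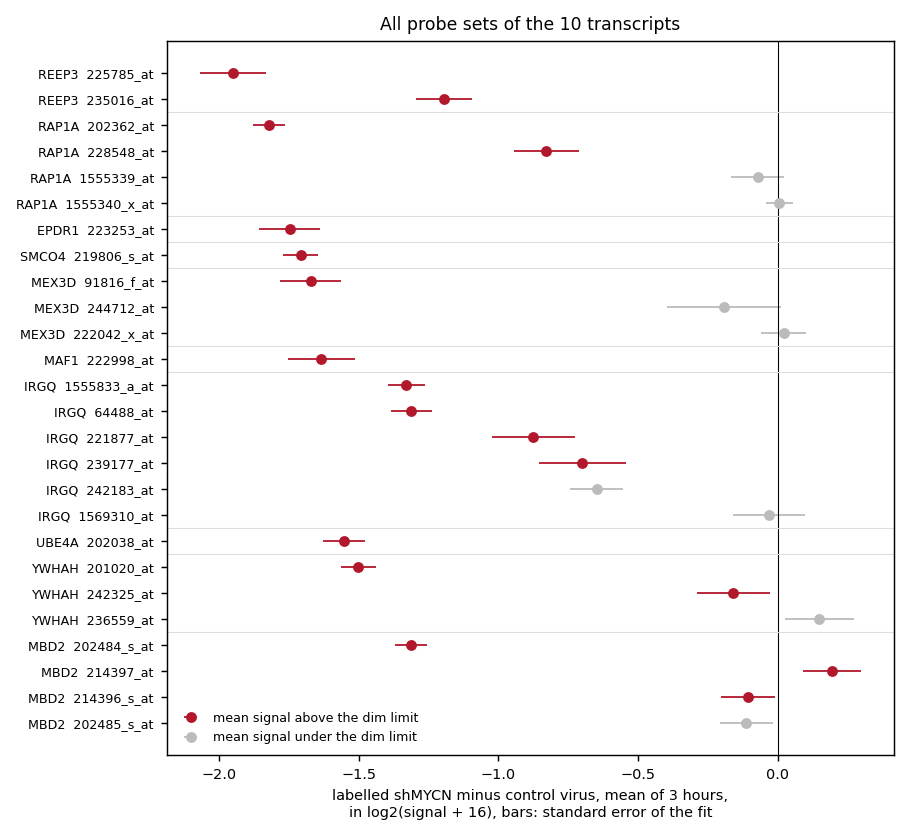
Difference in log2(signal + 16) between arrays labelled shMYCN and control virus, mean of 3 hours, for all 26 probe sets of the 10 transcripts, brightest first within a gene, with standard errors of the fit as bars. Red points have a mean signal above the dim limit and grey points below it. The red points near 0 are 1 probe set of YWHAH and 2 of MBD2, and the other 15 red points lie between -1.95 and -0.70.

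Of 30 listed relatives 24 were tested, and between arrays labelled shMYCN and control virus over the 3 times 10 were higher, 2 were lower and 12 did not pass (limma, Benjamini-Hochberg over all genes). That is 41.7% higher and 8.33% lower, against 22.2% and 15.8% of all genes tested, with a median log2 difference of 0.19 against 0.037. The higher count ran from 8 to 12 when single arrays were left out. The 2 lower calls are small and depend on single arrays: without the control virus array of 72 hours neither was called, and 1 was called without the control virus array of 24 or 48 hours, either array without virus, array B of 24 hours or array A of 72 hours.

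RAP1B, the closest relative of RAP1A, measured 1701.4 to 1896.5 (median 1826) in the 6 arrays labelled shMYCN against 1789.2 to 1850.3 in the other 5. Its log2 difference was -0.012 ± 0.05 (limma adjusted p = 0.877), while RAP1A stood at -1.82 on the same arrays. The related GTPases RAP2A (0.36 ± 0.06, limma adjusted p = 9.96e-04), RAP2B (0.47 ± 0.09) and RAP2C (0.48 ± 0.07) rose, each above the control of its hour on 6 of 6 arrays. RAP2C measured 155.7 to 258.7 in the arrays labelled shMYCN against 137.7 to 152.9 in the others, with no overlap.

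In the REEP family the axonal gene REEP1 (log2 0.46 ± 0.07, limma adjusted p = 2.20e-04) and REEP6 (0.65 ± 0.10) rose on 6 of 6 arrays. REEP4, which shares the mitotic role of REEP3, gave 0.069 ± 0.11 and did not pass (limma adjusted p = 0.652), and REEP2 and REEP5 gave 0.28 and 0.19 without passing. Among the RNA-binding MEX3 genes, MEX3C (0.60 ± 0.08, limma adjusted p = 1.63e-04) and MEX3A (0.40 ± 0.08) rose, and MEX3B at 0.21 did not pass. A second probe set of MEX3C gave 0.13 ± 0.10. The calls of MEX3C and RAP2A were lost with the mean of all probe sets of a gene, and that of MEX3A without the control virus array of 72 hours.

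Of the other 14-3-3 genes, YWHAB was higher (log2 0.18 ± 0.07, limma adjusted p = 0.0480) and YWHAE lower (-0.19 ± 0.06, limma adjusted p = 0.0348), both near the threshold. Of 2 further YWHAB probe sets above the dim limit, 1 gave 0.29 ± 0.08 and 1 gave -0.072 ± 0.09, and a further YWHAE probe set gave -0.52 ± 0.14. YWHAG, YWHAQ, YWHAZ and SFN ran from -0.092 to 0.015 and did not pass. The tested relatives of MBD2 in the MBD family split. MBD5 (1.38 ± 0.08, limma adjusted p = 5.42e-07) and MBD6 (0.32 ± 0.06) rose on 6 of 6 arrays. MBD1, MBD3 and MBD4 gave -0.096, 0.16 and -0.025 without passing. MBD5 measured 66.4 to 342.4 in the arrays labelled shMYCN against 46.0 to 60.7 in the others, but its second probe set gave 0.029 ± 0.18. UBE4B, the paralogue of UBE4A, fell (-0.33 ± 0.08, limma adjusted p = 0.00854) on 6 of 6 arrays by its brightest probe set, at 135.8 to 190.5 against 192.8 to 217, while its other 4 probe sets above the dim limit ran from -0.10 to 0.11. Over the 11 of these 12 relatives with further probe sets above the dim limit, 14 of 18 such probe sets had the sign of the brightest. Some of these 14 showed hardly any change, such as those of MBD5 (0.029 ± 0.18) and RAP2A (0.013 ± 0.13). The share over all genes was not computed, so the count of signs says little.

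**Figure D4:**
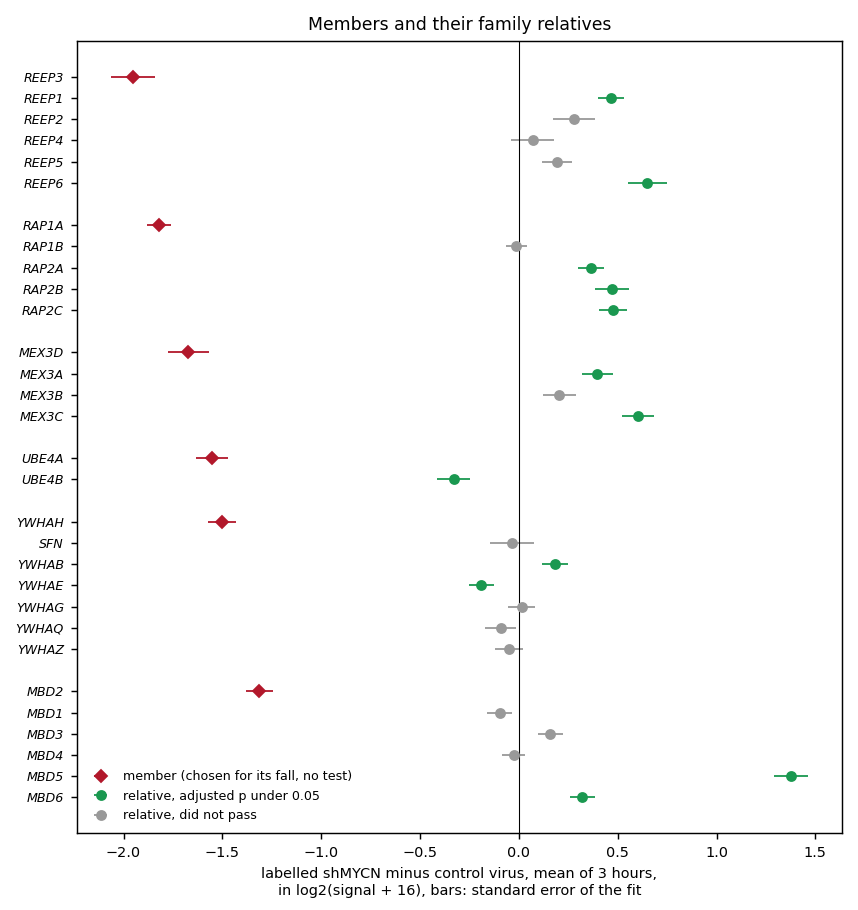
Difference in log2(signal + 16) between arrays labelled shMYCN and control virus, mean of 3 hours, for 6 of the members (red diamonds, no test) and the 24 tested relatives of their families (green where the adjusted p is under 0.05, grey where not), with standard errors of the fit as bars. The red points lie between -1.95 and -1.31, and no relative lies below -0.33.

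Genes that work with the members or share their class or setting, called partner genes, were examined in 5 lists, and 80 of their 93 genes were tested. The tested REEP relatives and UBE4B are also in these lists, so their results are counted both there and among the relatives. Over these 80, 16 were lower, 17 higher and 47 did not pass, which is 20% lower and 21.2% higher, against 15.8% and 22.2% of all genes. The lower count was 4 without the control virus array of 72 hours, when 6.54% of all genes were lower. Of 13 genes of U-box ligases, the enzyme class of UBE4A, and of the segregase VCP and its cofactors, 5 were lower and none higher (median log2 -0.13). FAF2 (-0.37 ± 0.06, limma adjusted p = 3.53e-04), PRPF19 (-0.33), UBE4B (-0.33) and NPLOC4 (-0.38) had the smallest p, each lower on 6 of 6 arrays, and VCP itself gave 0.0075.

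Endoplasmic reticulum shaping genes, the setting of REEP3, had 7 of 14 higher and none lower (median log2 0.25). That is 50% higher, against 22.2% of all genes, and includes REEP1 and REEP6, already counted among the relatives. The reticulon genes RTN2 (0.79 ± 0.08, limma adjusted p = 2.79e-05) and RTN1 (0.60 ± 0.07) led with REEP1 and REEP6. Regulators and effectors of RAP1 had 5 of 14 higher and 1 lower (median 0.15). That is 35.7% higher and 7.14% lower, against 22.2% and 15.8% of all genes. The exchange factor RAPGEF2 (0.63 ± 0.07, limma adjusted p = 5.11e-05), RALGDS (0.38), RADIL (0.47) and SIPA1L2 (0.24) led, each higher on 6 of 6 arrays.

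The RNA polymerase III machinery, which MAF1 restrains, had 8 of 28 lower and 3 higher (median log2 -0.0093). That is 28.6% lower and 10.7% higher, against 15.8% and 22.2% of all genes. By smallest p, GTF3C2, a subunit of the initiation factor TFIIIC, was lower (-0.61 ± 0.06, limma adjusted p = 2.31e-05), and POLR1D (0.41), SNAPC5 (0.46) and POLR3GL (0.57) were higher. The 3 higher genes are thus all named, while most of the 8 lower ones are not. In the NuRD complex, which MBD2 brings to methylated DNA, the deacetylase gene HDAC2 (-0.68 ± 0.05, limma adjusted p = 3.55e-06) and the histone chaperone gene RBBP7 (-0.46 ± 0.07) were lower. HDAC1 (0.25 ± 0.06) and MTA1 (0.26 ± 0.07) were higher, and 7 of 11 did not pass (median -0.053). In this list 18.2% were lower and 18.2% higher, near the shares of all genes. HDAC2, HDAC1 and MTA1 moved the same way on 6 of 6 arrays and RBBP7 on 5 of 6. The calls of RBBP7, MTA1, RALGDS, PRPF19, NPLOC4 and UBE4B were lost without the control virus array of 72 hours, those of NPLOC4 and HDAC1 without that of 48 hours, and that of SIPA1L2 without that of 24 hours. With the mean of all probe sets of a gene the calls of MTA1 (log2 0.021), SIPA1L2 (0.025) and UBE4B (-0.056) were also lost.

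The 8 tested genes most like the mean profile of the members over the 11 arrays, outside the members, were AZIN1, DPYSL2, TMED10, POLR2C, EPB41L5, IFIT5, HDAC3 and TMEM30A, with Pearson r of 0.994 to 0.997 for log2 signals. The arrays fall into few groups, so such an r mostly says that these genes share the split between arrays labelled shMYCN and the others. Their log2 differences over the 3 times were smaller than those of most members, from -0.89 ± 0.05 for AZIN1, an inhibitor of the polyamine regulator antizyme, to -1.33 ± 0.08 for HDAC3, a histone deacetylase. DPYSL2, a neuronal microtubule-binding protein gene, had -0.67 at 24 hours, -1.11 at 48 hours and -1.28 at 72 hours. TMED10, a cargo receptor of the early secretory pathway, had -0.70, -1.25 and -1.57 in the same order. The members themselves correlated with the mean of the other 9 at r = 0.940 for MAF1 to 0.994 for MBD2.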

How the data were processed

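RNA of IMR32 cells was measured on 11 one-colour Affymetrix arrays. The deposited values are linear signal intensities, 1 per probe set and array, made by the authors with MAS5 and GCOS per the submitters' processing notes. Versions, background settings and detection calls are not given in the sources used here. Of 54675 probe sets 41097 have 1 gene symbol in the platform annotation, 1801 have several and 11777 have none or are not listed, and 41043 symbols were updated through Entrez IDs against RefSeq GRCh38.p14. Nothing was named from a probe set with several symbols.

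Computed here were log2(signal + 16), the choice of the brightest probe set of each gene by mean log2 signal, and removal of the dimmest 40% of genes (mean signal under 14.8), which left 11865 of 19775. All 10 members passed this filter. limma 3.58.1 in R 4.3.3 (lmFit, eBayes with trend) fitted 7 group means over 11 arrays, with 4 residual and 7.35 prior degrees of freedom, and p-values are two-sided with Benjamini-Hochberg adjustment over all genes at a threshold of 0.05. Log2 differences are on the log2(signal + 16) scale, which understates changes of dim genes. Probe sets were fitted the same way without the dim filter. The fit was tested on simulated data first. The number of arrays limits the precision, and each hour has 1 control virus array, whose spread is taken from the other groups.

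Named were the 10 members with all probe sets, MYCN and every tested family relative. Also named were up to 4 genes of each list of partner genes by smallest p, and the 8 genes most like the mean member profile. The members and all lists were chosen with earlier results of these data known. Arrays A and B of different hours did not deviate together (correlations of -0.051, 0.038 and 0.10 over genes), so their letters were not used as pairs. Alternatives were other offsets, quantile normalization, median scaling, other dim filters, the mean of all probe sets, no trend, a replicate block and each array left out.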

Additional observations from a re-analysis of the deposited data

Results flagged for a closer look

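Among 98 tested relatives and partner genes, 11 had a difference between arrays labelled shMYCN and control virus at 72 hours that was not the one at 24 hours, by limma's test of the change itself. That share is near the 10.3% of all genes tested with such a change, and each hour has 1 control virus array.

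MBD5, a relative of MBD2, changed the most of the 11, by 2.05 ± 0.21 (SE, limma adjusted p = 3.72e-04). Its brightest probe set gave log2 differences of 0.37, 1.34 and 2.42 at 24, 48 and 72 hours. The second MBD5 probe set above the dim limit showed no such rise, with -0.10 at 72 hours. In the NuRD complex RBBP7 changed by -0.91 (limma adjusted p = 0.00881), with 0.0021 at 24 hours and -0.91 at 72 hours, and HDAC2 by -0.53 (limma adjusted p = 0.0281), with -0.41 at 24 hours and -0.93 at 72 hours.

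In the RNA polymerase III machinery GTF3C2 changed by -0.67 (limma adjusted p = 0.0187), POLR3GL by 0.84 (limma adjusted p = 0.0469), SNAPC5 by 0.63 (limma adjusted p = 0.0425) and POLR1D by 0.56 (limma adjusted p = 0.0257). Among RAP1 regulators and effectors RAPGEF2 changed by 0.76 (limma adjusted p = 0.020) and RALGDS by 0.67 (limma adjusted p = 0.0332). The reticulon genes RTN2 and RTN1 changed by 0.87 (limma adjusted p = 0.0214) and 0.63 (limma adjusted p = 0.0460).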

How the results depend on the processing

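The median log2 difference of the members from control virus, -1.65, was -1.82 with an offset of 1, -1.28 with an offset of 64 and -1.18 with the mean of all probe sets per gene, and ran from -1.96 to -1.36 when single arrays were left out. All 10 members were at least 2-fold lower in each alternative except the mean of all probe sets, where 5 were. Their median difference at 24 hours from the arrays without virus, which are of 0 hours, was -1.07. It was -0.89 with an offset of 64 and -0.55 with the mean of all probe sets, and -1.09 to -1.05 without single arrays. The median step from 24 to 48 hours, -0.78, was -0.58 and -0.36 under the same 2 settings and -0.78 to -0.64 without single arrays. A smaller offset widens and a larger one narrows log2 differences by construction, and the mean of all probe sets includes dim ones.

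Relatives called lower numbered 1, against 2, under quantile normalization, without a dim filter, with the mean of all probe sets and without trend, and 0 to 2 without single arrays. The cause was not tested. The call of YWHAB was lost in 12 settings and that of YWHAE in 10. Partner genes called lower numbered 4 to 19 without single arrays, against 16, with 4 when the control virus array of 72 hours was left out. Over all genes that omission left 776 lower and 1162 higher calls, against 1871 and 2629, and median scaling gave 2194 and 2062. With the letter as a replicate block the members' median stayed at -1.65, 2005 genes were lower and 2758 higher, and MEX3B (0.21) was the 1 call that changed among the 24 relatives and 17 partner genes refitted. No value changed sign past the threshold in any setting run. Mean signals lay under the dim limit in 8 of the 26 probe sets, and signals under or near it carry little information on a change.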
